A study of Mus musculus with 12 samples.

Results

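The Ca2+/calmodulin-dependent kinase (CaM kinase) genes *Camk2a*, *Camk2b*, *Camk2d*, *Camk2g*, *Camk4*, *Camk1*, *Camk1d*, *Camk1g*, *Camkk1* and *Camkk2* were examined for the poly(A) sites (PASs) at which their transcripts can end. They were chosen by gene symbol, and all 10 were found, with 29 of the 56204 PAS entries and 10 of the 16627 genes in a list compiled from 3′READS+ of mouse hippocampal mini-slices. 3′READS+ sequences the 3′ ends of poly(A)+ transcripts, so each PAS marks a place where transcripts were found to end. A gene with several PASs can thus have alternative cleavage and polyadenylation (APA) isoforms. The slices came from wild-type C57BL/6 mice, given as 3 months old in the sample labels, and the dentate gyrus had been trimmed off. Each animal gave both LTP and control slices, and there were 4 groups of 3 libraries each. Slices of the LTP groups were perfused with forskolin (50 uM) for 5 min, and then for another 5 min with forskolin at the same concentration together with KCl at 30 mM and Ca2+ at 10 mM, a chemical protocol for long-term potentiation. They were frozen 1 hr or 3 hr later. Time-matched control slices had received 0.2% DMSO for 10 min. The list is shared by the 12 libraries. The paper left out control 3 hr replicate 3 as an outlier by sample clustering, and which listed sites rest on that library was not examined here. The read numbers of the single libraries were not analysed here, because the names of their columns match none of the sample labels. The values below are therefore numbers of sites and distances between them. They have no replicates and no errors, and levels of the kinases and differences between LTP and control slices are not given.

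CaM kinases carry Ca2+ signals from the synapse into phosphorylation of proteins. CaMKII is a large holoenzyme that phosphorylates itself after Ca2+/calmodulin has bound, and it is a central kinase of LTP at hippocampal CA3-CA1 synapses. CaMKI and CaMKIV form a separate cascade: they need phosphorylation by a CaM kinase kinase (CaMKK) for full activity, and CaMKIV acts largely in the nucleus, where it phosphorylates CREB. Where the transcript of such a gene ends matters in general. Ends within the last exon change the length of the 3′UTR, which holds signals for transport, stability and translation of the mRNA, and ends within introns can remove coding sequence.

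Across the family, 25 of the 29 PASs (86.2%) carried the label exon3, read here as the 3′-most exon, against 55.7% of all entries in the list. The remaining 4 PASs had intronic labels and belonged to 2 genes, *Camk2b* and *Camk2d*. An intronic PAS was thus listed for 20.0% of the CaM kinase genes and for 33.5% of all genes. None of the kinase genes had a PAS labelled UA, a label carried by sites of 13.8% of all genes, or exon3ext, found for 12.2%. UA sites are read as lying on the strand opposite to the gene, and exon3ext sites as lying beyond the annotated end. The family had a median of 2 PASs per gene, as did the whole list. Of the 10 genes, 7 (70.0%) had 2 or more PASs, against 67.1% of all genes. Counting exon3 PASs alone, the same 7 genes had 2 or more, against 49.5% of the 15075 genes with at least 1. These 10 genes were named for their function and are not a sample of genes, so the shares are set side by side without a test. The list was used as deposited, with no filter on reads or relative abundance. The paper counted PASs after such filters and reported a higher share in the 3′-most exon than the full list has. Its share set the PASs of that exon against intronic PASs, while the 55.7% is a share of entries of every label. Shares of the kinase genes were not set against a filtered list. None of the 29 PASs is listed under another gene as well.

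**Figure D1:**
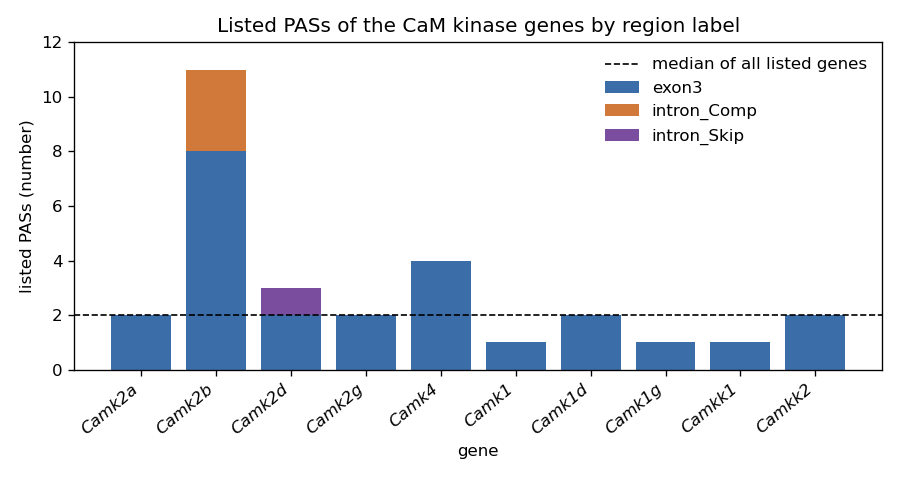
Bars give the number of listed PASs (y axis) for each CaM kinase gene (x axis), coloured by region label, and the dashed line marks the median of 2 PASs over all listed genes. *Camk2b* stands out with 11 PASs, *Camk1*, *Camk1g* and *Camkk1* have 1 each, and intronic labels occur in *Camk2b* and *Camk2d* alone.

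The 4 CaMKII genes held 18 of the 29 PASs, 14 of them exon3. Most of these belonged to *Camk2b* (Ensembl identifier ENSMUSG00000057897.14), which encodes the actin-binding β subunit of the holoenzyme. It had 11 PASs on the minus strand of chromosome 11, and 95.9% of the genes in the list had fewer. Its 8 exon3 PASs lay, in the order of transcription, at positions 5871675, 5871530, 5870719, 5870534, 5870273, 5869753, 5869722 and 5869683 (mm9, the build in the submitters' processing notes). Only 186 genes, or 1.23% of the genes with an exon3 PAS, had 8 or more. The sites fell into an upstream pair 145 nt apart, a middle set that began 811 nt further on, and a downstream set of 3 that followed after 520 nt. Within the downstream set, the neighbours were 31 nt and 39 nt apart, not far above the 24 nt within which the authors had joined PASs into one. Joining these 2 pairs left 6 exon3 PASs, while the shares of genes given above count all 8 and all 11. The 8 sites spanned 1992 nt, and the longest 3′UTR that GENCODE M21 gives for a coding transcript of *Camk2b* is 2187 nt.

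The other 3 PASs of *Camk2b* were labelled intron_Comp, a label read as a composite terminal exon, in which an exon runs on into the intron. They lay at 5937433, 5914009 and 5913515. The last of these was 41840 nt upstream of the first exon3 PAS, the middle one 494 nt before it, and the first 65758 nt upstream of the first exon3 PAS. For comparison, the 12834 intronic PASs of the list that lay upstream of the first exon3 PAS of their gene did so by a median of 20421 nt, with quartiles at 7251 nt and 58081 nt. The most upstream site of *Camk2b* was farther than 77.5% of them, and the nearest was farther than 67.7%. Of all genes, 11.6% had 3 or more intronic PASs.

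*Camk2d* (ENSMUSG00000053819.16), the gene of the δ subunit, which is broadly expressed outside the brain as well, had 3 PASs on the plus strand of chromosome 3. One of them, at 126521718, carried the label intron_Skip, read as a terminal exon that is skipped when the full-length transcript is made. It was the only PAS of this kind in the family, and 5.82% of all genes had one. It lay 24340 nt upstream of the first exon3 PAS, a distance greater than for 54.6% of the intronic PASs in the comparison above. The exon3 PASs, at 126546058 and 126547830, were 1772 nt apart. *Camk2b* and *Camk2d* thus differed in the kind of intronic label as well as in the number of such sites.

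*Camk2a* (ENSMUSG00000024617.16) encodes the α subunit, the main CaMKII subunit of excitatory forebrain neurons, and its mRNA is known to be carried into dendrites through its 3′UTR. Both of its PASs were labelled exon3, on the plus strand of chromosome 18 at 61147648 and 61147800. They were only 152 nt apart, and 17.0% of the genes with 2 or more exon3 PASs had a shorter span. GENCODE M21 gives a longest 3′UTR of 3375 nt for this gene, so the span between the listed ends was 0.045 times that length. In the list, alternative ends of *Camk2a* within the last exon therefore differ by this short stretch. *Camk2g* (ENSMUSG00000021820.18), the gene of the γ subunit, also had 2 exon3 PASs and no others, at 21555201 and 21554097 on the minus strand of chromosome 14. These were 1104 nt apart, 0.554 times the longest annotated 3′UTR of 1993 nt. The α and β subunits, which assemble together in the forebrain holoenzyme, thus stood at 2 and 11 listed PASs.

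*Camk4* (ENSMUSG00000038128.7), the gene of the nuclear kinase CaMKIV, had the most widely spread exon3 PASs of the family. Its 4 PASs, all labelled exon3, lay on the plus strand of chromosome 18 at 33344997, 33345997, 33352511 and 33355418. The first pair was 1000 nt apart, the third site followed after 6514 nt and the fourth after another 2907 nt. The outermost sites were 10421 nt apart, a span exceeded in 36 of the 7465 genes with 2 or more exon3 PASs on a single chromosome, whose median was 817 nt. The shortest and the longest 3′UTR that GENCODE M21 gives for coding transcripts of *Camk4* with an annotated mRNA end are both 1072 nt. The listed sites thus spread over 9.72 times the longest annotated 3′UTR. *Camk4* was the only one of the 7 kinase genes with 2 or more exon3 PASs whose span was longer than its longest annotated 3′UTR. This held for 439 of the 6695 genes (6.56%) for which both lengths were known, and in 54 of them the ratio was higher than in *Camk4*. The study placed introns by RefSeq, the release of which is not given in the sources used here, and whether the distant sites belong to the same transcription unit was not tested.

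**Figure D2:**
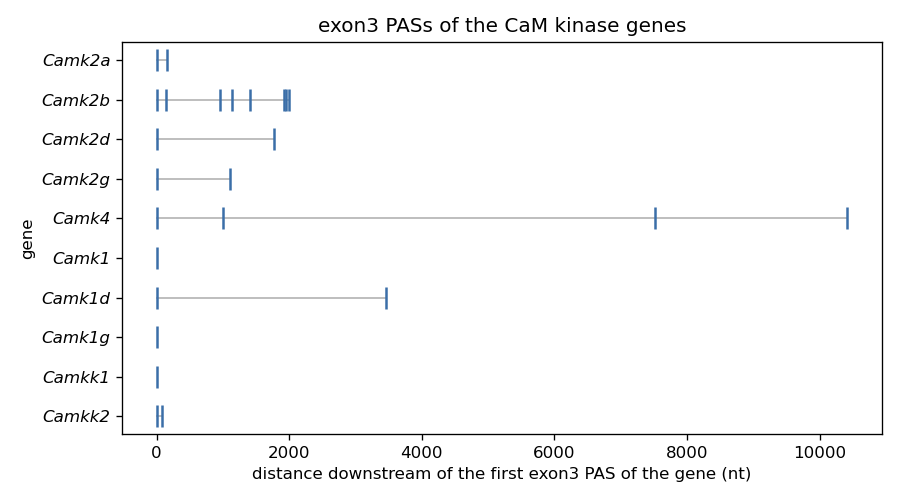
Each tick is an exon3 PAS, placed by its distance in nt downstream of the first exon3 PAS of its gene (x axis), with 1 row per CaM kinase gene (y axis) and grey lines joining the outermost sites. The sites of *Camk4* extend to 10421 nt and those of *Camk1d* to 3453 nt, while the 2 sites of *Camk2a* and of *Camkk2* lie 152 nt and 78 nt apart.

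The 3 CaMKI genes had 4 PASs between them, all exon3. *Camk1d* (ENSMUSG00000039145.16), the gene of CaMKIδ, had 2, at 5217962 and 5214509 on the minus strand of chromosome 2. They were 3453 nt apart, a span longer than that of 92.4% of the genes with 2 or more exon3 PASs and 0.625 times the longest annotated 3′UTR of 5529 nt. *Camk1g* (ENSMUSG00000016179.11), which encodes the lipid-anchored kinase CaMKIγ, had a single PAS at 195172540 on the minus strand of chromosome 1. *Camk1* (ENSMUSG00000030272.15), the gene of CaMKIα, also had a single PAS, at 113284120 on the minus strand of chromosome 6. *Camk1* and *Camk1g* have a single listed end, so the list offers no alternative 3′UTR length for them. Of all genes, 32.9% had 1 PAS of any label. Of the genes with an exon3 PAS, 49.5% had 2 or more exon3 PASs.

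The PAS of *Camk1* lay 9 nt from an exon3 PAS of *Ogg1*, at 113284111 on the opposite strand. *Ogg1* encodes a DNA glycosylase that removes oxidised guanine. *Ogg1* is read toward higher and *Camk1* toward lower coordinates, so these genes meet tail to tail. Transcripts that end at this pair of sites do not overlap, and other PASs of *Ogg1* were not examined here. A PAS of another gene on the opposite strand within 10 nt was found for 284 of the 31279 exon3 entries (0.908%), and for 1 of the 25 exon3 PASs of the kinase genes. The next closest case in the family was *Camkk2*, whose downstream PAS was 1431 nt from a PAS of *P2rx4*, a gene for an ATP-gated ion channel. Ends of *Camk2b* lay at least 1900 nt from those of *Ykt6*, which encodes a SNARE protein.

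The upstream kinases had 3 PASs, all exon3. *Camkk1* (ENSMUSG00000020785.17), the gene of CaMKKα, had a single PAS at 72855575 on the plus strand of chromosome 11. *Camkk2* (ENSMUSG00000029471.13) encodes CaMKKβ, which also phosphorylates AMP-activated protein kinase. Its 2 PASs were at 123181257 and 123181179 on the minus strand of chromosome 5. They were 78 nt apart, the shortest span of the family, and 9.58% of the genes with 2 or more exon3 PASs had a shorter one. GENCODE M21 gives 3′UTRs of 250 nt to 3505 nt for the coding transcripts of *Camkk2* with an annotated mRNA end.

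Over the family, the spans of the 7 genes with 2 or more exon3 PASs ran from 78 nt to 10421 nt with a median of 1772 nt, and all such genes had a median of 817 nt with quartiles at 258 nt and 1770 nt. Measured against the longest annotated 3′UTR, the median span was 0.554 times that length in the kinase genes and 0.598 times in all genes. The 15 pairs of neighbouring exon3 PASs in the kinase genes lay a median of 520 nt apart, against 259 nt for the 16203 pairs in the list. Of these pairs, 20.0% in the kinase genes and 28.7% in the list were 100 nt or less apart. The 7 pairs of *Camk2b* had a median of 185 nt, and the 8 pairs of the other kinase genes had a median of 1438 nt.

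**Figure D3:**
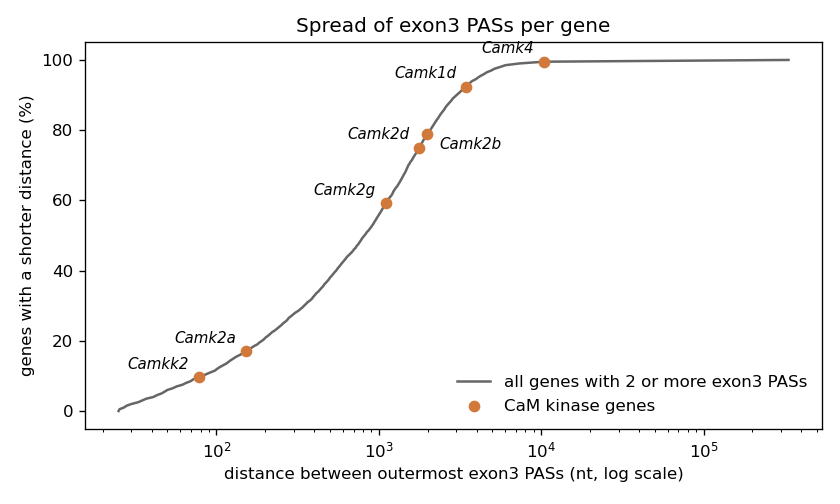
The line gives, for each distance between the outermost exon3 PASs of a gene (x axis, nt, log scale), the percentage of the genes with 2 or more exon3 PASs that have a shorter one (y axis), and the points mark the 7 CaM kinase genes. *Camkk2* and *Camk2a* sit at 9.58% and 17.0%, *Camk2g*, *Camk2d* and *Camk2b* between 59.2% and 78.9%, and *Camk1d* and *Camk4* at 92.4% and 99.5%.

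A further 14 genes of the pathway had 40 PASs, with a median of 1.5 per gene. Of these genes, 7 had 2 or more PASs, against 67.1% of all genes. *Calm2* and *Calm3* encode calmodulin, which all of these kinases bind, and had 1 and 2 PASs. The exon3 PASs of *Calm3* were 1428 nt apart. The small calmodulin-binding proteins *Nrgn* and *Pcp4* had 1 PAS each, as did the CaMKII inhibitors *Camk2n1* and *Camk2n2*. *Pnck*, a further CaMKI gene, had 1 PAS, and *Camkv*, which encodes a pseudokinase related to CaMKI, had 1 exon3 and 1 exon3ext PAS. Among the CaM kinase phosphatases, *Ppm1f* had 1 PAS and *Ppm1e* had 5, which included 1 intron_Comp and 1 UA site. Of the genes for CREB and its coactivator, *Crtc1* had 2 PASs, spanning 3190 nt. *Creb1*, the gene of a substrate of CaMKIV, had 6, of which 1 was intron_Comp. The AMPA receptor gene *Gria1* had 3 PASs, all exon3.

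*Grin2b*, the gene of the NMDA receptor subunit to which CaMKII binds, had the most PASs of the pathway genes with 13, and 97.7% of all genes had fewer. It was also the only one of them with more PASs than *Camk2b*. Its 6 intron_Comp PASs outnumbered its 5 exon3 PASs, and 1 exonI and 1 UA site made up the rest. The 7 pathway genes with the fewest PASs, 1 each, were *Calm2*, *Nrgn*, *Pcp4*, *Camk2n1*, *Camk2n2*, *Pnck* and *Ppm1f*. An intronic PAS was listed for 3 of the 14 genes, *Ppm1e*, *Creb1* and *Grin2b*, against 33.5% of all genes. The intronic PASs of these 3 genes were all of the composite kind. The skipped terminal exon of *Camk2d* had no counterpart among the 14, and only 5.82% of all genes had an intron_Skip PAS.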

How the data were processed

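The table that the authors deposited names a gene, a strand, a chromosomal position and a region label for every PAS. Reads had been mapped with bowtie 2 (mm9 in the submitters' processing notes), PASs had been called from reads with unaligned Ts, and PASs within 24 nt had been clustered. Positions are as deposited (unit nt). The labels are not defined in the sources used here and were read from their names. The 12 columns of values per library were not used, since no column name matches a sample label. The planned comparisons of LTP and control libraries were therefore not run, and read depth was not analysed here.

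Sites were counted once per gene and distances taken along the strand in pandas 2.3.3 and numpy 2.4.6 under Python 3.11.15, steps that were first tested on simulated data. Figures used matplotlib 3.10.9. Identifiers and 3′UTR lengths of coding transcripts came from GENCODE M21 (GRCm38), in which all 10 symbols matched. Transcripts whose mRNA end is tagged there as not found were left out of the 3′UTR lengths. Of genes with 2 or more exon3 PASs on a single chromosome, 89.7% had such a length. As 0 of the 29 PASs fell inside their gene on that build, no coordinates were taken from it. Sequence around the sites and protein identity were not analysed here. All 10 kinase genes and all genes of the pathway list were to be named. Some items of the list as first drawn up are not reported here. The genes and lists were chosen with earlier results of these data known.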

Additional observations from a re-analysis of the deposited data

How the results depend on the processing

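No paired analysis was possible because no column of read numbers has a name that matches a sample label, and for the same reason the alternatives planned for expression and PAS usage (DESeq2, filters, replicate block, libraries left out) were not run. The remaining alternatives concern the list of sites, and the 20 values they gave all stayed within 1.5 times the value reported. Leaving out UA sites or sites listed under more than 1 gene, or adding exon3ext sites, changed no value they were run on. They could not, since the kinase genes have no such sites. Their values among the 20 are therefore no check of the results. Merging neighbouring PASs 100 nt or less apart reduced the 29 PASs to 26 and the genes with 2 or more PASs from 7 to 6, and a limit of 200 nt, chosen after seeing the data, gave 23 PASs and 5 genes. The number of genes with an intronic PAS stayed at 2 under both limits. The spans were run only with exon3ext sites added, not after merging. The 2 PASs of *Camkk2*, 78 nt apart, fall within the first limit, and those of *Camk2a*, 152 nt apart, within the second. Shares of all genes after merging are not given here, so the comparisons with all genes hold for the list as deposited. Reads do not enter any of these values, and a rarely used PAS counts like a major one.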
